A study of Mus musculus with 12 samples.

Results

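The genes described here are 36 genes of glucose uptake, glycolysis, lactate export and glycogen use in activated mouse CD4+ T cells. They were chosen by symbol, and all 36 were found among the 32698 named genes of the deposited count table. They cover 2 glucose carriers, 3 hexokinases, 7 further enzymes of upper glycolysis, 4 enzymes that make or remove fructose 2,6-bisphosphate, 8 enzymes of lower glycolysis, 4 genes of lactate formation and export, 3 pyruvate dehydrogenase kinases and 5 glycogen enzymes. In all, 35 of the 36 had enough counts to be tested, and the exception was Hk3, a hexokinase best known from myeloid cells, with 1 to 9 counts per library.

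A naive T cell takes up little glucose, and on activation it switches to aerobic glycolysis, in which most pyruvate leaves the cell as lactate although oxygen is present. Glucose enters through facilitative carriers, is trapped by hexokinase, is committed to glycolysis by phosphofructokinase and ends as pyruvate, which lactate dehydrogenase reduces and monocarboxylate carriers export with a proton. Most steps have several isoenzymes whose proportions set the affinity and regulation of the step, and glycogen serves as a store that T cells can fill and draw on. Keap1 binds the transcription factor Nrf2 (gene Nfe2l2) and hands it over for degradation, so that cells without Keap1 accumulate Nrf2. Nrf2 is known for raising antioxidant genes and for redirecting glucose carbon.

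RNA was sequenced from naive CD4+ T cells stimulated in vitro through CD3 and CD28 with antibodies, either wild type (WT) or with Keap1 knocked out (KKO). RNA was taken after 24 h or 48 h, which gives 4 groups of 3 libraries: WT at 24 h, KKO at 24 h, WT at 48 h and KKO at 48 h. All groups shared the activating antibodies, and no unactivated or untreated cells were among the samples. The labels do not say how or in which cells Keap1 was deleted, the age of the mice, or whether replicates are separate animals or cultures. The p-values therefore measure the spread between these libraries, part of which may be technical. Sex-linked transcripts, described below, differ between the libraries of each group, so these are not all from the same animal. The series title names glucose and glutamine metabolism under Nrf2 as the subject.

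Libraries held 17.8 to 32.6 M counts (M for mega). Keap1 fell from 107 ± 1.48 counts per M of library total (CPM; SD, n = 3) to 16.6 ± 0.907 with the knockout at 24 h (adjusted p = 6.3e-13, edgeR), and from 126 ± 5.16 to 21.1 ± 1.21 CPM at 48 h (adjusted p = 1.22e-12). Nfe2l2 transcript was at 29.1 ± 0.678 CPM in WT and 29.0 ± 0.0491 in KKO at 24 h, and at 39.0 ± 2.13 and 39.8 ± 2.38 at 48 h. The T cell marker genes summed to 2954 to 3260 CPM in every library, and Cd4 was at 474 to 538 CPM on average. B cell markers (10 genes) summed to 25.2 to 36.4 CPM in the 6 WT libraries and to 50.4 to 79.7 CPM in the 6 KKO libraries. Natural killer markers (6 genes) summed to 5.31 to 11.3 CPM in WT and 15.6 to 30.5 in KKO at 48 h, of which Gzma held 6.14 ± 3.31 and 23.5 ± 7.69 CPM, while Ncr1 was at 0.164 ± 0.0465 and 0.116 ± 0.0723 CPM. Neutrophil markers (8 genes) summed to at most 8.89 CPM, with S100a9 at 0 in all libraries, and at 48 h they were at no more than 2.47 CPM in WT and at least 4.11 in KKO. Markers of CD8 T cells (2 genes) summed to 8.32 to 10.6 CPM in WT and 12.7 to 13.4 in KKO at 48 h, where both genes were called higher, and to 7.02 to 8.11 and 9.36 to 10.8 at 24 h. Macrophage markers (9 genes, Fcgr1 at 0) summed to 13.3 to 15.04 CPM in WT and 15.4 to 22.4 in KKO at 48 h, erythroid markers (7 genes) to 0.442 to 1.52 and 2.12 to 2.45, and dendritic cell markers (8 genes, Clec9a and Cd209a at 0) to 94.9 to 111 and 60.9 to 76.2. All marker lists but that of T cells thus stood apart in their sums between genotypes at 48 h, the dendritic one in the other direction. The dendritic markers did not move together: of the 3 tested, Flt3 was called higher and Bst2 lower in KKO at 48 h. The part of these markers in the differences between WT and KKO was not tested. In bulk RNA, fewer cells of a type and less RNA per cell cannot be told apart.

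Sex-linked transcripts divide the libraries, and 2 of them carried both kinds. Xist, from the inactive X chromosome, was above 10 CPM in replicates 1 and 2 of WT and replicate 2 of KKO at each time. The summed Y-linked transcripts were above 10 CPM in replicate 3 of WT at each time, in replicate 3 of KKO at 24 h and in replicate 1 of KKO at 48 h. Replicate 1 of KKO at 24 h and replicate 3 of KKO at 48 h held both. In 3 of the 4 groups the order of the libraries went with this split: at 48 h the WT library with Y-linked transcripts was the highest of its group in 29 of 35 tested genes, and the corresponding KKO library in 27 of 35. The KKO library with Xist alone was the lowest of its group in 25 of 35 at 48 h and in 27 of 35 at 24 h. In WT at 24 h it did so only in part. Replicate 3 with Y-linked transcripts and replicate 2 with Xist were each the highest in 15 of 35, while replicate 1 with Xist was the lowest in 28 of 35. The same orders over all tested genes are not given here, and Y-linked transcripts alone mark only 1 library in each group. The part of sex in the order of the libraries was not tested. The part of sex in the differences was not tested beyond the comparisons given below. Counts of called genes among the 35 are therefore given below with and without the 2 mixed libraries.

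As a whole, the 36 genes made up 1.85 ± 0.102% (SD, n = 3) of all counts in WT and 1.96 ± 0.199% in KKO at 24 h. They made up 3.75 ± 0.203% in WT and 4.47 ± 0.325% in KKO at 48 h. The 3 KKO libraries at 48 h, at 4.82, 4.18 and 4.42%, were all above the 3 WT libraries at 3.56, 3.72 and 3.96%, whereas at 24 h the genotypes overlapped.

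Time in culture moved nearly all of the genes. Between 24 h and 48 h, 28 of 35 were called higher and 3 lower in WT, where 31.0% of all 13196 tested genes were called higher and 29.7% lower at a Benjamini-Hochberg adjusted p under 0.05 by edgeR's quasi-likelihood test. In KKO 31 were called higher and 3 lower, against 34.4% and 33.4% of all tested genes. The median log2 change of the 35 genes was 0.96 in WT and 1.10 in KKO, beside -0.00060 and 0.0021 over all tested genes. The 28 genes called higher in WT were all called higher in KKO as well, and the 3 that fell were Tigar, Bpgm and Slc16a1 in both. The share of all tested genes called alike in both genotypes is not given here, so this overlap cannot be read as particular to these genes. Without the 2 mixed libraries, 31 of the 34 calls in KKO held and Ldhb, Pdk2 and Pfkfb3 lost theirs, while all 31 calls in WT held.

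Between genotypes, calls were made at 48 h. At 24 h, 0 of 35 genes were called in either direction, where 1.89% of all tested genes were called higher and 0.432% lower. At that time 3 genes had an unadjusted p under 0.05 by edgeR, the median log2 difference was 0.058 beside -0.0040 over all tested genes, DESeq2 called 1 gene (Hk2) and limma-voom called 0. Without the 2 mixed libraries 0 were called. Leaving out replicate 2 of KKO at 24 h gave 3 calls, Hk2, Eno1 and Slc16a3, named after their values were seen. At 48 h, 15 of 35 were higher and 3 lower in KKO, where 12.4% of all tested genes were called higher and 11.9% lower. The median log2 difference at 48 h was 0.28, beside -0.0042 over all tested genes.

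Those 48 h counts fell when some libraries were left out, which also leaves fewer libraries per group. The part of the smaller number of libraries was not tested. The median log2 difference without the 2 mixed libraries was 0.30. All 18 calls held without replicate 3 of WT or without replicate 2 of KKO at 48 h. The share of all tested genes called in each such fit is not given here. Without the 2 mixed libraries, 6 of the 15 remained called higher (Hk1, Hk2, Gpi1, Pfkm, Pygl and Gbe1) and 0 of the 3 lower. Leaving out replicate 1 of KKO at 48 h also left 6 higher and 1 lower, and leaving out replicate 1 or replicate 2 of WT at 48 h left 9 higher. Leaving out replicate 3 of KKO at 48 h left 1 lower. Within libraries of like sex-linked transcripts at 48 h, the KKO library with Xist alone was above the mean of the 2 WT libraries with Xist in 30 of 35 genes (median log2 ratio 0.23), and the KKO library with Y-linked transcripts alone was above its WT counterpart in 30 of 35 (0.31). At 24 h the same comparisons gave 7 of 35 (-0.10) and 27 of 35 (0.10). Each rests on 1 KKO library and has no test, and the 48 h values come from the libraries in which the genes were called. The same comparisons over all tested genes are not given here, so these counts cannot be read as particular to the 35 genes.

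**Figure D1:**
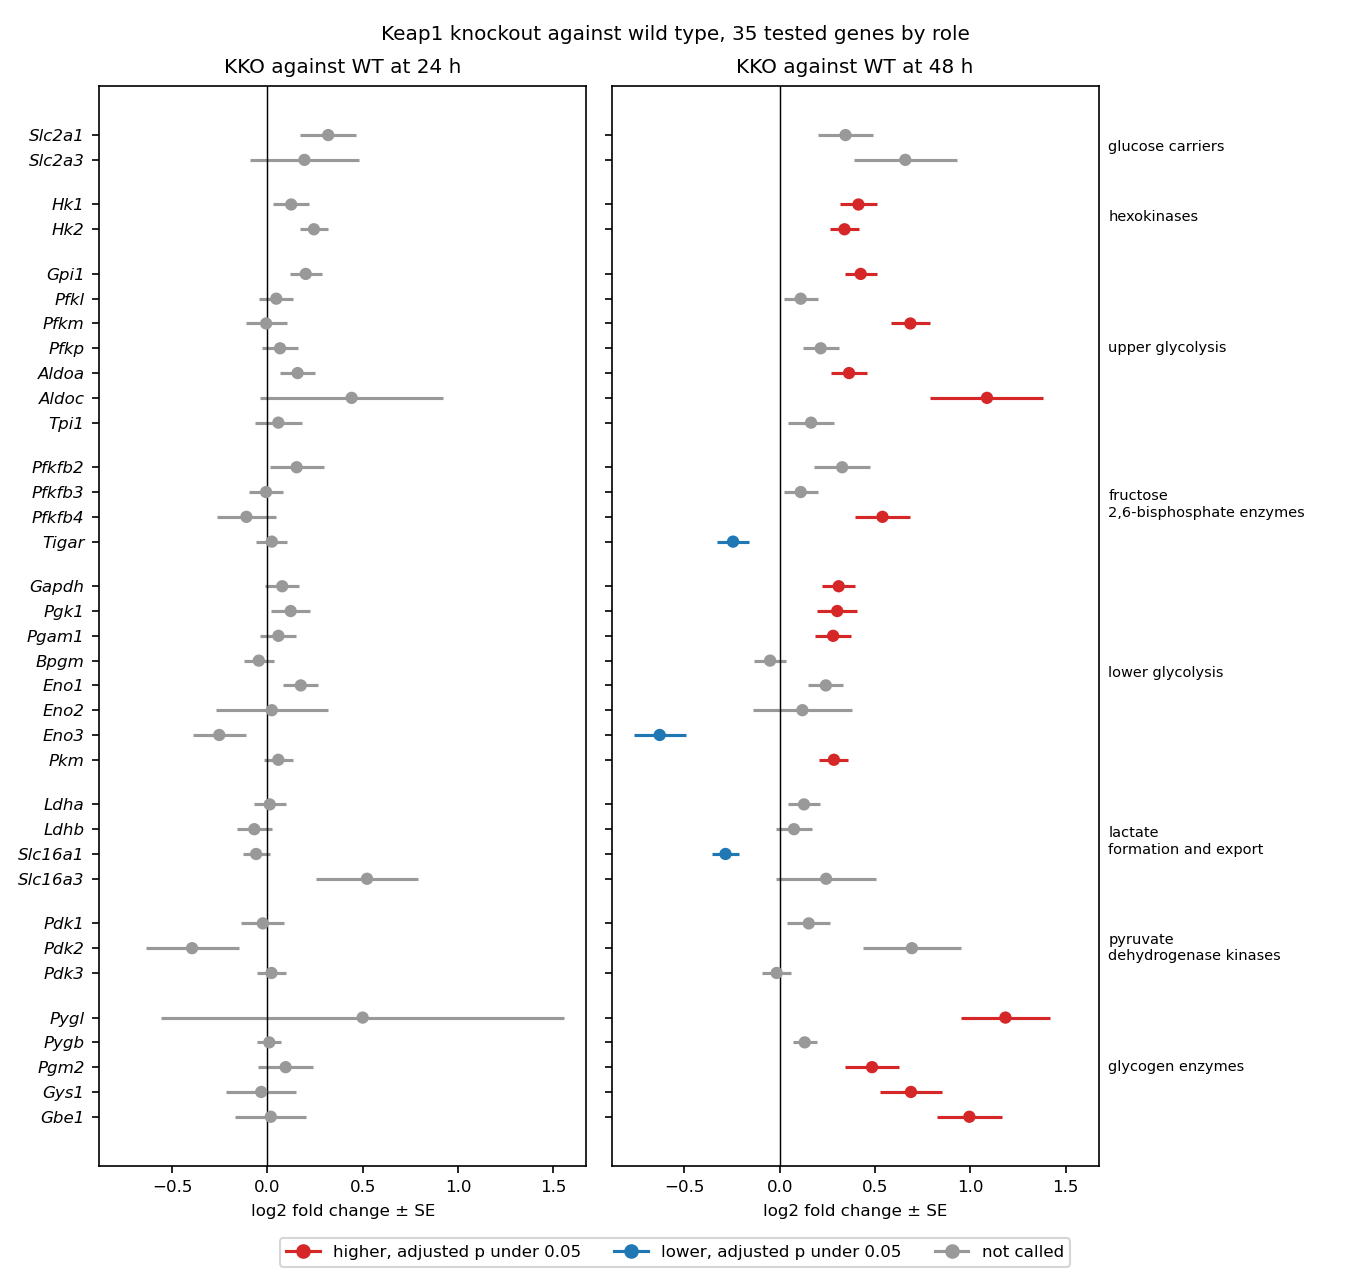
The log2 fold change of KKO against WT (horizontal axis; points with standard errors) is plotted for the 35 tested genes at 24 h (left) and 48 h (right), ordered by role. No gene is coloured at 24 h, whereas 15 are red (called higher) and 3 blue (called lower) at 48 h.

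Promoter sequences are shown for 4 genes that stand for the different courses described below: Ldha, the main lactate dehydrogenase; Pygl, the gene that rose most with time; Slc16a1, a carrier that fell; and Gbe1, which was higher in KKO at 48 h under every setting tried. RefSeq start sites of mouse build GRCm38.p6 matched 35 of the 36 genes (all but Slc2a3). Each line gives the 250 bases before a start, 5′ to 3′ on the gene's strand, with capitals marking ACGTG or GCGTG, the cores of hypoxia response elements, on either strand.
Ldha: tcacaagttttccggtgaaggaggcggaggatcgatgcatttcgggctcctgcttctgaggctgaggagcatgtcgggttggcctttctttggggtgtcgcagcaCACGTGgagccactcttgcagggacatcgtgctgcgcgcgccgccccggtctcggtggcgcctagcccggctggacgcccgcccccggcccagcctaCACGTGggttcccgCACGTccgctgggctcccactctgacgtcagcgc
Pygl: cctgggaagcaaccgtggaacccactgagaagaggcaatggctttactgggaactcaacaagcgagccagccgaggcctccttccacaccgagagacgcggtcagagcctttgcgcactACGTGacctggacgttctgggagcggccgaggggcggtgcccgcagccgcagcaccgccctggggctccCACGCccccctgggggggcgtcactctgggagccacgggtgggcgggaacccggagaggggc
Slc16a1: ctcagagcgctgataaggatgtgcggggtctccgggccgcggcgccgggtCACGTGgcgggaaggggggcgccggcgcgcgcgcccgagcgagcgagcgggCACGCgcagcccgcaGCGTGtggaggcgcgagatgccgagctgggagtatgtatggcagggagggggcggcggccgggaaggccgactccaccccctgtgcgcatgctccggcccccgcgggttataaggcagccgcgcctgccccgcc
Gbe1: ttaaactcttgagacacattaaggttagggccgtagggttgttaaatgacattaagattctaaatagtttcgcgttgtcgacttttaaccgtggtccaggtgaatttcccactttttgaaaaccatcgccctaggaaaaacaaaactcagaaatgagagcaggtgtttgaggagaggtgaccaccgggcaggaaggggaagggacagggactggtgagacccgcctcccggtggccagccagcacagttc

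The Ldha window shown (chr7:46845554-46845803, plus strand) had 5 such cores and lies within the gene of the GENCODE annotation, overlapping no exon. Its 2 copies of CACGTG, the E-box that Myc and Max bind, count as a core on both strands. Another Ldha window (chr7:46846832-46847081) also lies within the gene, and its sequence is not shown here. The Pygl window (chr12:70227684-70227933, minus strand) had 2 cores, lies within the Pygl gene and overlaps an exon of F730035M05Rik on the opposite strand. The Slc16a1 window (chr3:104638414-104638663, plus strand) had 4 cores, with 1 CACGTG and, overlapping it, 1 TGACNNNGC, the antioxidant response core that Nrf2 binds. The Gbe1 window (chr16:70313699-70313948, plus strand) had 0 cores.

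Across windows of 300 bases (250 before to 50 after a start), ACGTG or GCGTG occurred in 38 of the 51 windows of these genes (74.5%), and in 43.8% of 32851 windows of all genes. The 51 windows belong to 35 genes and some overlap, and their GC content averaged 59.9% against 53.8% over all windows, with 17.4 against 12.4 CG pairs per window; the part of base composition was not tested. CACGTG occurred in 6 windows (11.8%, against 7.2% of all) and TGACNNNGC in 4 (7.8%, against 12.4% of all), searched on both strands. A match of letters is a description and not a binding site.

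The 2 glucose carriers rose with time to very different degrees (31.0% of all tested genes were called higher in WT and 34.4% in KKO). Slc2a1 (GLUT1, chr4:119108711-119137983), the carrier that activated T cells depend on, was at 130.1, 148 and 148 CPM in WT and 183, 141 and 209 in KKO at 24 h. The 48 h values were 247, 300.2 and 353 CPM in WT and 419, 352 and 373 in KKO. All libraries at 48 h were above all at 24 h, while the genotypes overlapped at both times by a narrow margin. Its log2 change with time was 1.08 ± 0.15 (SE) in WT and 1.10 ± 0.15 in KKO (adjusted p = 4.9e-05 and 2.83e-05). The difference of KKO from WT did not pass at 48 h (log2 0.35 ± 0.15, adjusted p = 0.103), but did with DESeq2 (0.0498) and without replicate 2 of KKO at 24 h or replicate 3 of WT at 48 h (0.0481 and 0.0283).

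Slc2a3 (GLUT3, chr6:122727809-122801640), a carrier of high affinity for glucose, was at 33.2, 36.5 and 37.4 CPM in WT and 40.7, 32.4 and 49.4 in KKO at 24 h. It stood at 350.3, 521 and 735 CPM in WT and 1015, 619 and 902 in KKO at 48 h. Both genotypes rose several-fold with no overlap between times, and within 48 h the lowest KKO library lay below the highest WT library. The log2 change with time was 3.91 ± 0.31 in WT and 4.37 ± 0.31 in KKO (adjusted p = 3.68e-06 and 1.22e-06). The genotype difference of 0.66 ± 0.27 at 48 h did not pass (adjusted p = 0.108). Without replicate 3 of WT at 48 h the Slc2a3 difference did pass (adjusted p = 0.0168, edgeR). Neither carrier was thus called between genotypes at either time by edgeR with all 12 libraries.

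**Figure D2:**
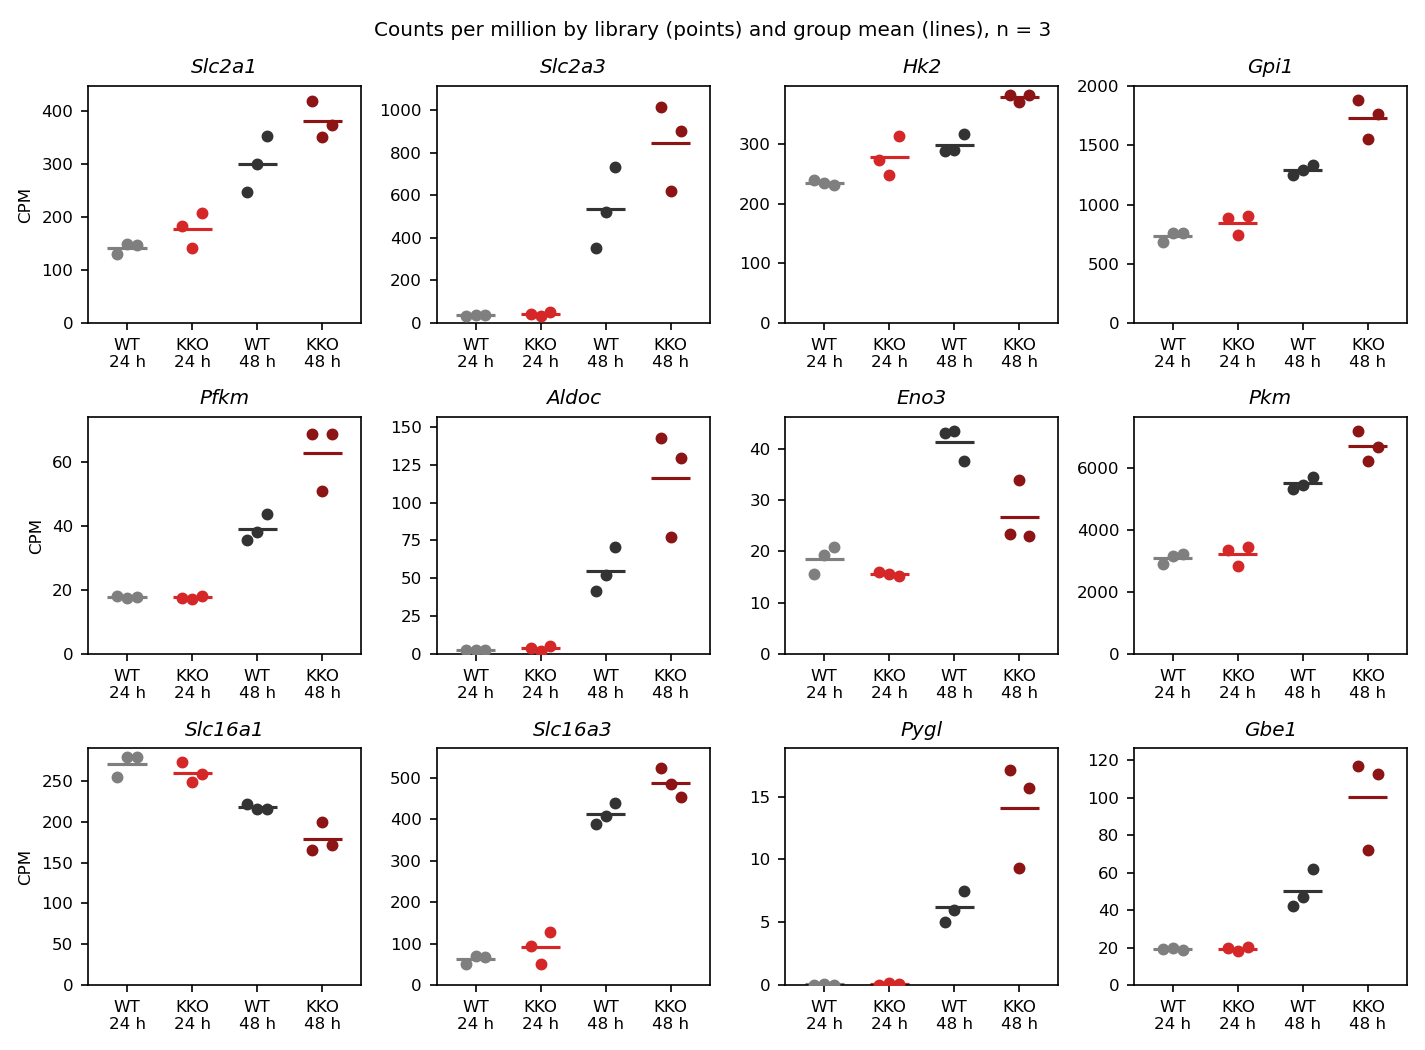
Counts per M of library total (CPM, vertical axes starting at 0) are plotted for 12 of the genes, with 1 point per library and a line at each group mean (n = 3). Slc2a3, Aldoc, Slc16a3 and Pygl are low in all 6 libraries at 24 h and high in all 6 at 48 h, and Eno3 and Slc16a1 are lower in every KKO library than in every WT library at 48 h.

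Both tested hexokinases, which trap glucose as glucose 6-phosphate, rose with time and were higher in KKO at 48 h. Of all tested genes, 31.0% were called higher with time in WT and 34.4% in KKO, and 12.4% were higher in KKO at 48 h. Hk1, the constitutive form on the outer mitochondrial membrane, was at 281, 274 and 277 CPM in WT and 309, 269.6 and 330.0 in KKO at 24 h. It was at 535, 552 and 621 CPM in WT and 861, 654 and 759 in KKO at 48 h, where the genotypes no longer overlapped. Its KKO to WT log2 difference was 0.41 ± 0.095 at 48 h (adjusted p = 0.00733), and it rose with time by 1.04 ± 0.096 in WT and 1.32 ± 0.097 in KKO.

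Hk2, the inducible form linked to growth signals, was at 239, 234 and 231 CPM in WT and 273, 247 and 312 in KKO at 24 h. Its 48 h values were 289, 289.9 and 317 CPM in WT and 381, 370.0 and 382 in KKO. Every KKO library exceeded every WT library at both times, which holds for no other of the 35 genes at 24 h. The log2 difference at 24 h was 0.24 ± 0.073, the smallest p of the 35 at that time, and it did not pass (adjusted p = 0.123). At 48 h it was 0.34 ± 0.074 (adjusted p = 0.00496), and Hk2 rose with time by 0.35 ± 0.074 in WT and 0.44 ± 0.074 in KKO.

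Of the 7 further enzymes of upper glycolysis, all rose with time in both genotypes and 4 were higher in KKO at 48 h: Gpi1, Pfkm, Aldoa and Aldoc. Among all tested genes 31.0% were called higher with time in WT and 34.4% in KKO, and 12.4% were higher in KKO at 48 h. Aldoc (chr11:78322968-78327781), the aldolase best known from brain, was at 2.46, 2.96 and 2.68 CPM in WT and 3.93, 1.77 and 5.36 in KKO at 24 h. It stood at 41.5, 52.0 and 70.6 CPM in WT and 142, 77.1 and 129 in KKO at 48 h. Its rise with time was 4.34 ± 0.39 on the log2 scale in WT and 4.98 ± 0.38 in KKO, without overlap between times. The KKO to WT difference at 48 h was 1.09 ± 0.30 (adjusted p = 0.0286), and replicate 2 of KKO lay nearer to the highest WT library than to the other KKO libraries. Without the 2 mixed libraries the adjusted p was 0.125.

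Pfkm (chr15:98092589-98132451), the muscle form of phosphofructokinase, the committed step of glycolysis, was at 18.04, 17.4 and 17.9 CPM in WT and 17.6, 17.4 and 18.1 in KKO at 24 h. At 48 h it was at 35.7, 38.2 and 43.7 CPM in WT and 68.9, 51.1 and 69.0 in KKO. The genotypes overlapped at 24 h and did not overlap at 48 h. The log2 difference was -0.0063 ± 0.11 at 24 h and 0.69 ± 0.10 at 48 h (adjusted p = 0.000448), and the difference between these, 0.69 ± 0.15, passed as an interaction (adjusted p = 0.0207). Pfkm was the only one of the 35 with a called interaction, where 1.46% of all tested genes were called higher and 2.72% lower; the median interaction of the 35 was 0.17. Its interaction lost its call without replicate 3 of WT or replicate 1 of KKO at 24 h, without replicate 1 or 2 of WT or replicate 1 or 3 of KKO at 48 h, and without both mixed libraries (adjusted p = 0.132), with log2 values of 0.62 to 0.80 over all settings. Leaving out replicate 2 of KKO at 48 h instead gave 7 interactions called higher and 3 lower, and leaving out replicate 3 of WT at 48 h gave 3 higher. How many of all tested genes were called in these fits is not given here.

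Exons of Pfkm overlap those of Senp1 on the opposite strand, and reads of the 2 cannot be told apart without the counting strand, which is not given in the sources used here. Senp1 itself was lower in KKO at 48 h (log2 -0.27 ± 0.061, adjusted p = 0.00625), the opposite direction to Pfkm. The other phosphofructokinases did not pass between genotypes: Pfkl, the liver form, differed by 0.11 ± 0.088 and Pfkp, the platelet form, by 0.22 ± 0.094 at 48 h. Both rose with time, Pfkl by 0.36 in WT and 0.43 in KKO, and Pfkp by 1.18 and 1.32. Pfkp overlaps Pitrm1 on the opposite strand, which moved the other way with time (-0.93 in WT and -1.21 in KKO). Exons of Hk1 (with Hk1os), Aldoa (Fam57b), Tpi1 (Spsb2), Gapdh (Iffo1), Pfkfb2 (Yod1) and Hk3 (Unc5a) also meet a gene on the opposite strand, with the same limit. Hk1os differed by 1.03 ± 0.37 at 48 h (adjusted p = 0.0556), in the direction of Hk1.

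Gpi1, the isomerase that follows hexokinase, averaged 1291 ± 44.7 CPM (SD, n = 3) in WT and 1733 ± 167 in KKO at 48 h, a log2 difference of 0.42 ± 0.084 (adjusted p = 0.00293), and no library overlapped. Aldoa, the main aldolase, averaged 3054 ± 162 and 3929.7 ± 377 CPM, a difference of 0.36 ± 0.093 (adjusted p = 0.0131). With time Gpi1 rose by 0.82 in WT and 1.04 in KKO, and Aldoa by 0.96 and 1.17. Tpi1, which interconverts the triose phosphates, was at 655, 785 and 816 CPM in WT and 833, 615 and 901 in KKO at 24 h. It stood at 1626, 1712 and 1839 CPM in WT and 2075, 1865 and 1864 in KKO at 48 h. It rose by 1.20 ± 0.12 in WT and 1.30 ± 0.12 in KKO, and its genotype difference of 0.16 ± 0.12 at 48 h did not pass although the libraries did not overlap.

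Fructose 2,6-bisphosphate activates phosphofructokinase; the PFKFB enzymes make and remove it, and Tigar degrades it and thereby slows glycolysis. Among these 4 genes Pfkfb4 was higher and Tigar lower in KKO at 48 h (12.4% and 11.9% of all tested genes). Pfkfb4 was at 2.93, 3.48 and 3.57 CPM in WT and 3.11, 3.20 and 2.94 in KKO at 24 h. Its 48 h values were 6.31, 6.32 and 6.50 CPM in WT and 11.1, 7.58 and 9.11 in KKO. It rose with time by 0.94 ± 0.15 in WT and 1.59 ± 0.15 in KKO, and the genotypes, which overlapped at 24 h, separated at 48 h (log2 0.54 ± 0.14, adjusted p = 0.0149). Its interaction of 0.65 ± 0.21 did not pass (adjusted p = 0.0909).

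Tigar was at 47.0, 51.8 and 48.7 CPM in WT and 49.9, 49.2 and 50.7 in KKO at 24 h. It was at 38.5, 34.4 and 33.3 CPM in WT and 26.6, 34.2 and 28.9 in KKO at 48 h. The fall with time, -0.47 ± 0.083 in WT and -0.74 ± 0.084 in KKO, left no overlap between times (adjusted p = 0.000163 and 1.89e-06). The genotypes overlapped at 48 h, and the difference of -0.24 ± 0.086 (adjusted p = 0.0496) kept its call in only 3 of 23 other settings. Pfkfb3, the PFKFB form that favours synthesis most, averaged 78.4 ± 5.01 CPM in WT at 24 h and 83.7 ± 7.85 CPM at 48 h. In KKO it rose slightly, by 0.21 ± 0.089 (adjusted p = 0.0465). Pfkfb2, the cardiac form, was not called in any comparison and averaged 6.69 ± 0.291 CPM in WT and 8.38 ± 1.36 in KKO at 48 h.

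In lower glycolysis 7 of the 8 genes rose with time in both genotypes and Bpgm fell. Of all tested genes, 31.0% rose and 29.7% fell in WT, and 34.4% rose and 33.4% fell in KKO. At 48 h Gapdh, Pgk1, Pgam1 and Pkm were higher in KKO and Eno3 was lower (12.4% and 11.9% of all tested genes). Gapdh, which reduces NAD+ as it oxidises glyceraldehyde 3-phosphate, was at 4058, 4538 and 4647 CPM in WT and 4964, 4077 and 4939 in KKO at 24 h. It stood at 9265, 9789.9 and 10582 CPM in WT and 13497, 11212 and 12017 in KKO at 48 h. Each 48 h library exceeded each 24 h library, and the genotypes separated only at 48 h. The log2 difference there was 0.31 ± 0.088 (adjusted p = 0.0214), after a rise of 1.16 ± 0.089 in WT and 1.39 ± 0.089 in KKO. A gene used as a loading control in many assays thus differed by time and, at 48 h, by genotype in these libraries. The genotype call held in 17 of 23 other settings, and its adjusted p by edgeR was 0.0668 without the 2 mixed libraries.

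Pgk1 (chrX:106187100-106203699), the first enzyme of the pathway to yield ATP, was at 854, 1010.4 and 995 CPM in WT and 1109, 864 and 1139 in KKO at 24 h. At 48 h it was at 2253, 2409.7 and 2621 CPM in WT and 3243, 2746 and 2991 in KKO, without overlap. It rose by 1.35 ± 0.11 in WT and 1.53 ± 0.11 in KKO. The genotype difference of 0.30 ± 0.10 lay at the threshold (adjusted p = 0.0486) and kept its call in 12 of 23 other settings. Pgam1, the phosphoglycerate mutase, averaged 987 ± 31.8 CPM in WT and 1199 ± 88.2 in KKO at 48 h (log2 0.28 ± 0.094, adjusted p = 0.0442). With the replicate number as a block its adjusted p was 0.0532. With time it rose by 0.39 in WT and 0.61 in KKO.

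Pkm, which makes pyruvate and whose splice forms this table does not separate, averaged 5497 ± 193 CPM in WT and 6695 ± 495 in KKO at 48 h (log2 0.28 ± 0.076, adjusted p = 0.0157). Its rise with time was 0.83 in WT and 1.06 in KKO. Eno1, the main enolase, averaged 4132 ± 69.8 and 4887 ± 293 CPM at 48 h; the libraries did not overlap, and the difference of 0.24 ± 0.093 missed the threshold (adjusted p = 0.0712). It passed with upper-quartile scaling (0.041), with at least 1 CPM in 6 libraries (0.0489), in the fit of only the 6 libraries compared (0.0417) and without replicate 2 of KKO at 24 h (0.0154). Eno1 rose with time by 1.28 in WT and 1.35 in KKO. Its near-identical copy Eno1b, which rose with time by 1.06 in WT and 1.17 in KKO, is 99.5% alike over 1736 bases and averaged 5.90 CPM, and the Gapdh copy Gm12070, 99.9% alike over 1002 bases, averaged 8.36 CPM; reads could have been split between each pair.

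Eno3 (chr11:70657202-70662513), the muscle enolase, was at 15.6, 19.2 and 20.8 CPM in WT and 15.9, 15.7 and 15.2 in KKO at 24 h. It stood at 43.0, 43.4 and 37.7 CPM in WT and 23.5, 33.9 and 23.0 in KKO at 48 h. It rose with time in both, by 1.16 ± 0.14 in WT and 0.78 ± 0.14 in KKO, yet every KKO library stayed below every WT library at 48 h. The difference there was -0.63 ± 0.14 (adjusted p = 0.00569), which opposes that of the other called genes of lower glycolysis, and its adjusted p was 0.0501 without the 2 mixed libraries. Eno2, the neuronal form, was at 2.00, 1.26 and 1.50 CPM in WT and 1.61, 1.97 and 1.23 in KKO at 24 h. Its 48 h values were 3.48, 4.11 and 4.93 CPM in WT and 5.11, 2.72 and 5.72 in KKO. It rose with time (1.40 ± 0.28 in WT and 1.50 ± 0.28 in KKO) without a called genotype difference.

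Bpgm, which diverts 1,3-bisphosphoglycerate into the 2,3 form, averaged 19.5 ± 1.87 CPM in WT at 24 h and 14.2 ± 0.551 CPM at 48 h. It fell by 0.45 on the log2 scale in WT and 0.46 in KKO (adjusted p = 0.000197 and 0.000146), and the genotypes overlapped at both times.

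Of the 2 lactate carriers, 1 rose with time and 1 fell. Among all tested genes 31.0% rose and 29.7% fell in WT, and 34.4% rose and 33.4% fell in KKO. Slc16a3 (MCT4, chr11:120948480-120960868), the carrier typical of cells that export lactate, was at 51.4, 70.5 and 67.6 CPM in WT and 93.1, 51.2 and 128 in KKO at 24 h. It stood at 387, 407 and 439 CPM in WT and 524, 484 and 453 in KKO at 48 h. The rise was 2.70 ± 0.28 in WT and 2.42 ± 0.28 in KKO (adjusted p = 2.3e-05 and 3.12e-05), with no overlap between times. At 24 h the KKO libraries spread widely, the one with Xist alone being the lowest, and neither genotype difference passed (log2 0.52 ± 0.27 at 24 h and 0.24 ± 0.26 at 48 h).

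Slc16a1 (MCT1, chr3:104638668-104658462), which can carry lactate in either direction, was at 255, 279 and 279 CPM in WT and 273, 249 and 259 in KKO at 24 h. At 48 h it was at 222, 216 and 216 CPM in WT and 166, 200.3 and 172 in KKO. It fell with time by 0.31 on the log2 scale in WT and 0.54 in KKO, and at 48 h all KKO libraries lay below all WT libraries. The genotype difference was -0.28 ± 0.072 (adjusted p = 0.0117, and 0.0707 without the 2 mixed libraries).

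Ldha, which reduces pyruvate to lactate, was at 1924, 2237 and 2247 CPM in WT and 2283, 1855 and 2326 in KKO at 24 h. It stood at 3583, 3653 and 3728 CPM in WT and 4255, 3982 and 3737 in KKO at 48 h. It rose by 0.77 ± 0.085 in WT and 0.89 ± 0.085 in KKO. Its genotype difference was 0.013 ± 0.085 at 24 h and 0.13 ± 0.085 at 48 h, and neither passed (adjusted p = 0.995 and 0.287). Ldhb, the form favouring lactate oxidation, averaged 27.7 ± 3.94 CPM in WT and 29.2 ± 0.846 in KKO at 48 h. It was called with time in KKO alone (0.28 ± 0.092, adjusted p = 0.0142; WT 0.14 ± 0.091, adjusted p = 0.214), and the difference between these did not pass (adjusted p = 0.539).

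The pyruvate dehydrogenase kinases, which keep pyruvate out of the mitochondrial tricarboxylic acid cycle by inactivating pyruvate dehydrogenase, were not called between genotypes. At 48 h 12.4% of all tested genes were called higher in KKO and 11.9% lower. Pdk1 was at 98.5, 116 and 118 CPM in WT and 116, 91.7 and 121 in KKO at 24 h. Its 48 h values were 181, 197 and 217 CPM in WT and 239.9, 193 and 228 in KKO, and it rose by 0.84 ± 0.11 and 1.01 ± 0.11. The times did not overlap and the genotypes did. Pdk3 was at 39.1, 44.8 and 43.5 CPM in WT and 43.4, 39.6 and 46.5 in KKO at 24 h. It was at 64.7, 69.1 and 73.4 CPM in WT and 74.2, 64.4 and 66.3 in KKO at 48 h, a rise of 0.70 ± 0.077 and 0.66 ± 0.077. Pdk2, the scarcest, averaged 1.76 ± 0.390 CPM in WT and 2.84 ± 0.879 in KKO at 48 h. Its differences of 0.69 ± 0.26 at 48 h and 1.09 ± 0.35 as an interaction did not pass (adjusted p = 0.061 and 0.0903), and it was called with time in KKO (0.59 ± 0.25, adjusted p = 0.0463), where the times overlapped.

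Glycogen genes included the largest change with time, that of Pygl. With time 5 of 5 rose in both genotypes, against 31.0% of all tested genes in WT and 34.4% in KKO. At 48 h 4 of 5 were higher in KKO, against 12.4% of all tested genes. Pygl (chr12:70190811-70231488), the liver form of glycogen phosphorylase, which releases glucose 1-phosphate, had 1, 3 and 0 counts in WT and 1, 3 and 1 counts in KKO at 24 h. At 48 h it had 93, 136 and 158 counts in WT and 349, 165 and 329 counts in KKO. Summed counts scaled to library size were 138 times higher at 48 h than at 24 h in WT (exact 95% counting interval 53.4 to 509) and 217 times higher in KKO (92.5 to 669), intervals that cover counting error only. The 48 h levels of 5.06, 6.01 and 7.50 CPM in WT and 17.2, 9.34 and 15.7 in KKO did not overlap, with a log2 difference of 1.18 ± 0.23 (adjusted p = 0.00308). The fitted change with time was 6.94 ± 0.46 in WT and 7.63 ± 0.42 in KKO, values that depend on the handling of near-zero counts.

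Gbe1 (chr16:70313949-70569716), the branching enzyme of glycogen synthesis, was at 19.2, 19.6 and 18.6 CPM in WT and 19.9, 18.1 and 20.1 in KKO at 24 h. It stood at 42.4, 47.1 and 61.7 CPM in WT and 117, 72.1 and 113 in KKO at 48 h. The genotypes overlapped at 24 h and were apart at 48 h. The log2 difference at 48 h was 0.99 ± 0.17 (adjusted p = 0.00256), and it held in all 23 other settings. Its interaction of 0.98 ± 0.25 fell just outside the threshold (adjusted p = 0.0546). Gbe1 rose with time by 1.40 ± 0.18 in WT and 2.38 ± 0.18 in KKO.

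Gys1, the glycogen synthase of muscle and most tissues, was at 20.4, 21.2 and 23.6 CPM in WT and 22.8, 17.00 and 23.9 in KKO at 24 h. At 48 h it was at 83.1, 94.2 and 116 CPM in WT and 189.9, 126 and 157 in KKO, without overlap. It rose by 2.17 ± 0.18 in WT and 2.89 ± 0.18 in KKO, and the genotype difference at 48 h was 0.69 ± 0.16 (adjusted p = 0.0134, and 0.0618 without the 2 mixed libraries). Gys1 exons overlap those of Ruvbl2 on the opposite strand, whose difference at 48 h was -0.018 ± 0.067 (adjusted p = 0.872).

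Pgm2, a phosphoglucomutase that links glycogen to glycolysis, averaged 218 ± 27.4 CPM in WT and 305 ± 49.6 in KKO at 48 h (log2 0.48 ± 0.14, adjusted p = 0.0299), after a rise with time of 1.39 and 1.78. The symbols Pgm1 and Pgm2 have been exchanged between mouse annotations, and the table does not say which use it follows, so its position is not given. Pygb, the brain form of the phosphorylase, averaged 106 ± 3.12 CPM in WT and 116 ± 7.20 in KKO at 48 h. It rose slightly with time (0.16 ± 0.063 in WT and 0.28 ± 0.063 in KKO) and was not called between genotypes (adjusted p = 0.14).

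**Figure D3:**
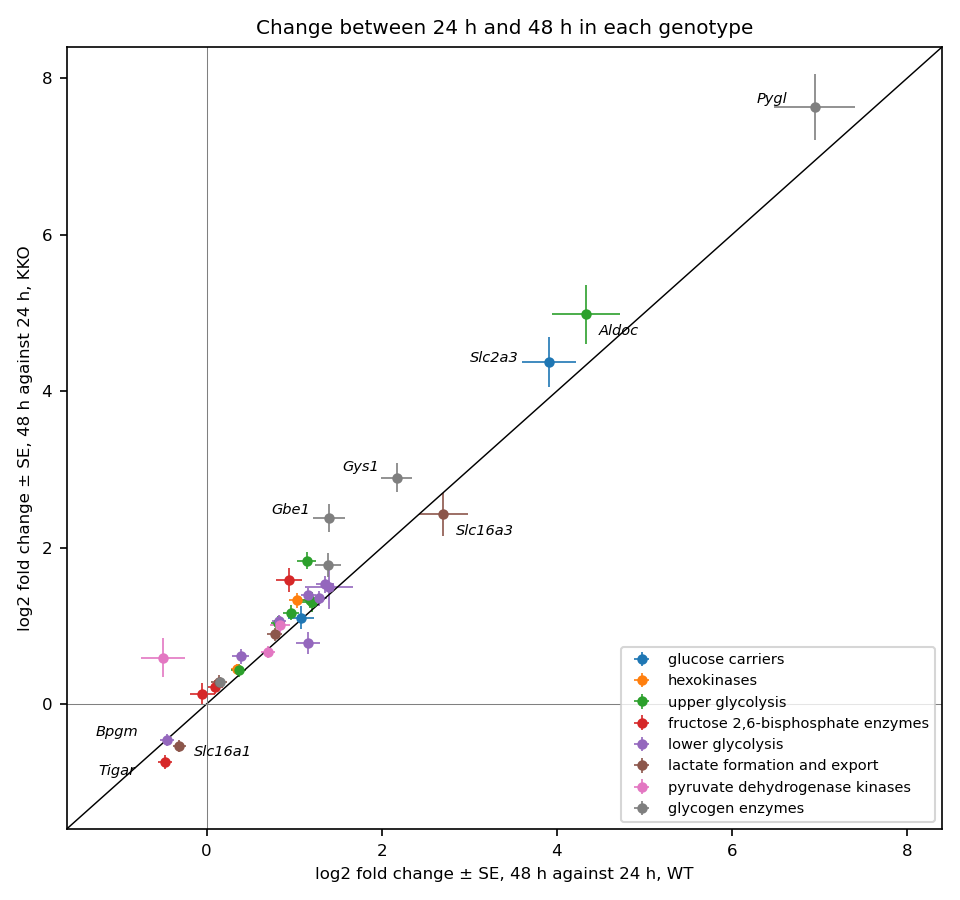
The log2 fold change from 24 h to 48 h in WT (horizontal axis) is plotted against that in KKO (vertical axis) for the 35 tested genes, with standard errors, colours for roles and a line of equality. Pygl, Aldoc and Slc2a3 lie farthest out in both genotypes, followed by Slc16a3 in WT and by Gys1 in KKO. Gys1 and Gbe1 lie above the line, and Tigar, Bpgm and Slc16a1 lie below 0 in both genotypes.

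Levels of different genes were compared per kilobase (kb) of their longest RefSeq-linked transcript. On that scale Gapdh ranked highest in all 4 groups, from 3109 ± 221 CPM per kb (SD, n = 3) in WT at 24 h to 8621 ± 816 in KKO at 48 h. Pkm came next in all 4 groups, with 2260.5 ± 79.2 in WT and 2753 ± 204 in KKO at 48 h. Behind it, Aldoa, Eno1 and Ldha held the ranks 3 to 5 and Pgk1 rank 6 in every group. In WT at 48 h Eno1 (2039 ± 34.4), Ldha (2013 ± 39.8) and Aldoa (1972 ± 105) lay within their spread of each other.

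The proportions of isoenzymes were far apart between the times at both transport steps. Slc2a1 held 82.9 ± 0.280% (SD, n = 3) of the summed CPM per kb of the 2 glucose carriers in WT at 24 h and 41.4 ± 4.68% at 48 h. In KKO it held 84.1 ± 0.423% at 24 h and 35.9 ± 4.27% at 48 h, so that Slc2a3 was the more abundant carrier at 48 h in both genotypes. Slc16a1 held 80.9 ± 1.79% of the 2 monocarboxylate carriers in WT at 24 h and 34.2 ± 1.73% at 48 h. In KKO the values were 74.4 ± 8.12% and 26.5 ± 2.65%, and the KKO range at 48 h (23.6 to 28.9%) lay below that of WT (32.5 to 35.98%).

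Among hexokinases, Hk1 went from 60.4 ± 0.271% to 71.1 ± 0.578% in WT and from 58.4 ± 0.825% to 71.9 ± 2.47% in KKO, the rest being almost wholly Hk2. Among phosphofructokinases, Pfkp went from 47.7 ± 1.30% to 60.3 ± 1.74% in WT while Pfkl went from 48.7 ± 1.44% to 35.3 ± 1.97%, and Pfkm made up 4.38 ± 0.243% in WT and 6.12 ± 0.783% in KKO at 48 h. Pdk1 made up 53.3 ± 0.609% of Pdk1, Pdk2 and Pdk3 together in WT and 55.8 ± 1.58% in KKO at 48 h, and Pfkfb3 80.6 ± 1.44% and 77.2 ± 2.99% of Pfkfb2, Pfkfb3 and Pfkfb4 together. Pfkfb1, which is not in this share, was at 4.71 ± 0.437 CPM in WT and 4.69 ± 0.467 in KKO at 48 h. Pygl made up 7.47 ± 1.44% of Pygl and Pygb together in WT and 14.2 ± 3.32% in KKO at 48 h, and under 0.2% in every library at 24 h, so that Pygb was the more abundant of the pair throughout. Pygm, which is not in this share, was at 0.835 ± 0.195 CPM in WT and 0.693 ± 0.163 in KKO at 24 h and at 1.74 ± 0.588 and 1.97 ± 0.272 at 48 h. Aldoa, Eno1 and Ldha held over 98% of the summed level of the members at their steps in every group, with Aldoc, Eno2, Eno3 and Ldhb making up the rest. These shares are descriptions without a test, and using coding lengths or no length at all moved the Slc2a1 share in WT to 80.0 or 79.9% at 24 h and 36.8% at 48 h. The Pdk1 share depended far more on length: in WT at 48 h it was 72.8% with coding lengths and 73.6% with none, and that of Pdk3 was 45.6, 26.6 and 25.7% by transcript length, coding length and none. Of 200 shares recomputed in these ways, 154 moved by more than the spread between libraries.

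**Figure D4:**
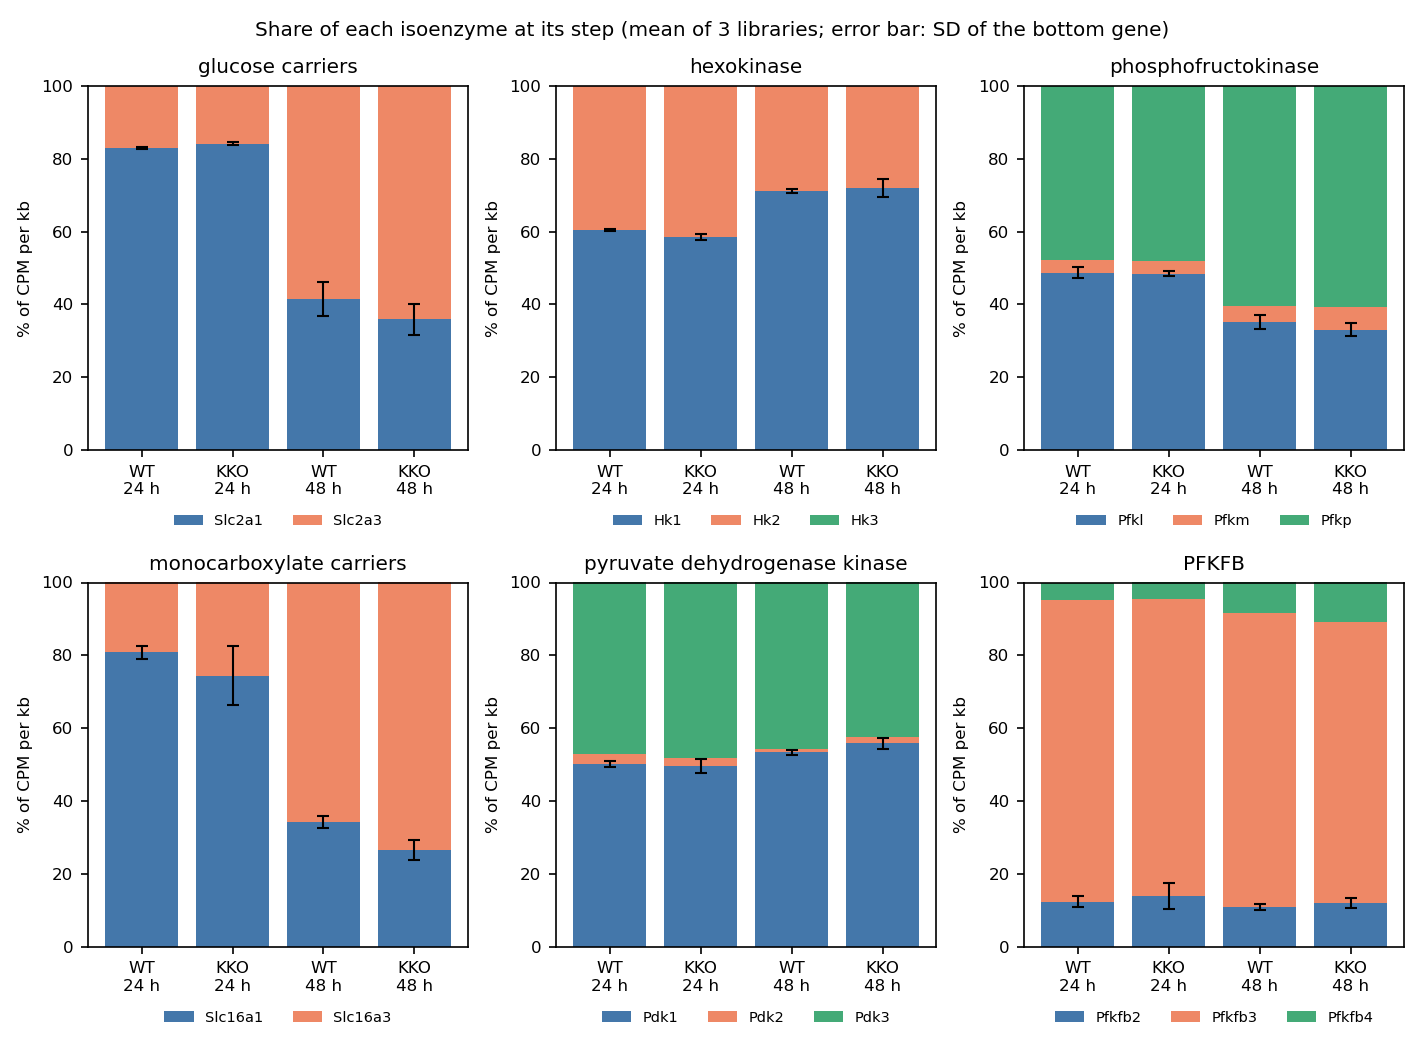
Stacked bars give the mean share (%) of each isoenzyme in the summed CPM per kb of its step for the 4 groups (n = 3; members only, so Pfkfb1 is not in the PFKFB bars; error bars are the SD of the lowest gene of each stack). The Slc2a1 share goes from 82.9% at 24 h to 41.4% at 48 h in WT and from 84.1% to 35.9% in KKO, and the Slc16a1 share is 34.2% in WT and 26.5% in KKO at 48 h.

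Of 68 further tested genes around the pathway in 7 lists, 15 were higher and 11 lower in KKO at 48 h, with a median log2 difference of 0.066; that is beside 12.4% higher and 11.9% lower among all tested genes. At 24 h 0 were higher and 1 lower, and with time 31 were higher and 14 lower in WT (31.0% and 29.7% of all tested genes) and 36 higher and 19 lower in KKO (34.4% and 33.4%). The lists were drawn up with earlier results of these data known, and their counts, from all 12 libraries, are descriptive.

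Of 15 further glycogen enzymes tested, 4 were higher and 2 lower in KKO at 48 h (12.4% and 11.9% of all tested genes). Ugp2, which makes the UDP-glucose that glycogen synthase uses, differed by 0.38 ± 0.095 on the log2 scale (adjusted p = 0.0112). Epm2a, the glycogen phosphatase laforin, differed by 1.50 ± 0.47 at no more than 1.40 ± 0.789 CPM, and lysosomal Gaa by 0.25 ± 0.058. Pgm2l1, which makes glucose 1,6-bisphosphate, and Phka2, a phosphorylase kinase subunit, were lower (-0.45 ± 0.11 and -0.34 ± 0.081). With time 10 rose and 2 fell in WT (31.0% and 29.7% of all tested genes) and 11 rose and 3 fell in KKO (34.4% and 33.4%). Among those that rose were Epm2a, from near 0 counts (0.0682 ± 0.00570 CPM in WT and 0.0256 ± 0.0223 in KKO) at 24 h, Stbd1, which tethers glycogen to membranes (2.23 and 2.74) and Pygm, the muscle phosphorylase (1.07 and 1.51).

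Of 21 tested regulators, 4 were higher and 4 lower in KKO at 48 h, where 12.4% and 11.9% of all tested genes were. Ppp1r3b, which brings a phosphatase to glycogen and so activates glycogen synthase, went from 45.8 ± 18.2 CPM in WT to 139 ± 49.1 in KKO (log2 1.61 ± 0.39, adjusted p = 0.0201). Bcl6, a repressor of glycolytic genes in T cells, differed by -0.76 ± 0.17 (adjusted p = 0.00561) at 5.82 ± 0.703 and 3.46 ± 0.717 CPM. Myc went from 671 ± 35.0 to 492 ± 71.4 CPM (-0.45 ± 0.085, adjusted p = 0.00232) and its partner Max by -0.44 ± 0.069. Hif1a, the hypoxia-inducible factor that activates many glycolytic genes, was higher, at 508 ± 41.8 CPM in WT and 676 ± 79.2 in KKO (0.41 ± 0.098, adjusted p = 0.00881). Egln1 (0.33) and Irf4 (0.20) were also higher and Foxk1 (-0.25) lower. With time 10 regulators rose and 6 fell in WT and 11 rose and 7 fell in KKO, against 31.0% and 29.7%, and 34.4% and 33.4%, of all tested genes. Ppp1r3b rose by 3.86 in WT and 4.82 in KKO, and Ppp1r3c, another glycogen-targeting subunit, had 0 counts in all 6 libraries at 24 h and 0.491 ± 0.149 CPM in WT and 1.004 ± 0.622 in KKO at 48 h. Egln3, an oxygen-sensing prolyl hydroxylase that is itself a target of hypoxia-inducible factor, rose by 3.58 and 2.97, Arrdc4, an arrestin related to Txnip, by 1.38 and 2.03, and Prkaa2, a catalytic subunit of AMP kinase, by 2.11 in WT. Irf4, an activator of glycolytic genes after T cell receptor signals, was lower in KKO at 24 h (-0.22 ± 0.052, adjusted p = 0.0389), and the change between times passed as an interaction (0.42 ± 0.074, adjusted p = 0.00847).

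Around lactate export, 2 of 4 tested genes were higher in KKO at 48 h and 0 lower (12.4% and 11.9% of all tested genes): Bsg and Emb, the chaperones that bring monocarboxylate carriers to the cell surface. Bsg was at 654 ± 64.0 CPM in WT and 849 ± 103 in KKO (0.38 ± 0.095, adjusted p = 0.012), and Emb at 129 ± 4.42 and 177 ± 25.2 CPM (0.46 ± 0.088, adjusted p = 0.00251). Both chaperones were thus higher while Slc16a1 was lower. Bsg also rose with time, by 1.10 in WT and 1.44 in KKO, Slc16a6 by 0.56 and 0.32, Emb by 0.34 in KKO, and Slc16a10, an aromatic amino acid carrier of the same family, fell by 1.23 and 1.32.

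For pyruvate entry into mitochondria, 1 of 10 was higher and 2 lower in KKO at 48 h, near the 12.4% and 11.9% of all tested genes. Pcx, which carboxylates pyruvate to oxaloacetate, went from 29.8 ± 4.45 CPM in WT to 55.4 ± 15.1 in KKO (0.89 ± 0.17, adjusted p = 0.00352). Pdhx and Pdp2, a subunit and a phosphatase of pyruvate dehydrogenase, were lower (-0.28 ± 0.079 and -0.25 ± 0.074). Pcx also rose with time (1.56 in WT and 2.50 in KKO), as did Mpc1, a pyruvate carrier subunit (0.22 and 0.19), while Pdp1 fell by 0.71 and 0.82 and Pdhx and Pdp2 fell by 0.46 and 0.34 in KKO. Pdha1, a catalytic subunit, was not called and stood at 231 ± 3.21 CPM in WT and 227 ± 0.608 in KKO at 48 h.

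Among further carriers and first-step enzymes, Adpgk, an ADP-dependent glucokinase, was lower in KKO at 48 h (-0.28 ± 0.064, adjusted p = 0.00694). With time the intracellular carrier Slc2a8 rose by 1.47 in WT and 1.54 in KKO and Slc2a9, a urate carrier, by 0.68 in KKO, while Adpgk fell by 0.30 in WT and 0.58 in KKO. Slc2a6, a further carrier of the family, rose with time, by 2.43 ± 0.19 in WT and 1.23 ± 0.18 in KKO, and these rises differed (interaction -1.21 ± 0.26, adjusted p = 0.0231). Among 6 further glycolytic isoenzymes, Ldhd, a D-lactate dehydrogenase (1.71 ± 0.26, adjusted p = 0.00048), and Pgp (0.39 ± 0.096), a phosphatase that clears side products of glycolysis, were higher and Minpp1 (-0.23 ± 0.073) was lower. The Ldhd difference also passed as an interaction (1.47 ± 0.37, adjusted p = 0.0382). With time Pgp rose by 0.24 in WT and 0.55 in KKO, Ldhd by 1.53 in KKO, and Minpp1 fell by 0.33 and 0.53 and Pgam5, a mitochondrial phosphatase, by 0.41 and 0.58. Among 6 genes of glycerol phosphate and glucose production, Slc37a4, the glucose 6-phosphate carrier, was higher (0.46 ± 0.13) and Gpd1 lower (-1.91 ± 0.60, at 0.396 ± 0.109 CPM in WT). With time Pck2, the mitochondrial enzyme that makes phosphoenolpyruvate, rose by 1.91 in WT and 1.82 in KKO, Slc37a4 by 1.83 and 1.97 and G6pc3 by 0.23 and 0.35, while Gpd1l fell by 0.55 and 0.73 and Gpd1 by 1.75 in KKO.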

How the data were processed

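The authors deposited RSEM expected counts per gene, unnormalised, for 12 libraries. The submitters' processing notes name FastQC, RSEM and build mm10, and give no version; aligner and annotation are not given in the sources used here. A human reference is named in the series text, whereas symbols and organism are mouse. Counts were rounded (10.8 to 12.7% of values per library were not whole). Another 6 columns matched no sample label and were not used, and 1 unnamed entry (at most 2 counts) was left out.

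Genes passing edgeR's filterByExpr (13196) were fitted with edgeR 4.0.16 in R 4.3.3: TMM scaling, robust quasi-likelihood F tests, all 12 libraries with 1 mean per group, 8 residual degrees of freedom. The 5 comparisons were two-sided with Benjamini-Hochberg adjustment over all genes, called under 0.05. CPM used TMM-scaled library sizes. Scripts were tested on simulated data. Every called gene is named by role, and per-library values are given for up to 2 of the largest called changes per role and comparison and for called interactions; of the wider lists, up to 4 called genes per list, of which some are not reported here. Members and lists were chosen with earlier results of these data known.

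Lengths, positions and overlaps came from GENCODE (GRCm38), promoters from RefSeq (GRCm38.p6); per-kb values use the longest transcript linked to RefSeq, and coding lengths come from GENCODE. Deviations of same-numbered libraries correlated across time by 0.126, 0.103 and 0.343 in WT and by 0.0287, 0.0852 and 0.0408 in KKO. Between genotypes the correlations had mixed signs, and what the numbers mark is not stated. The fit described above paired no libraries. Under the replicate block, run as an alternative, all 31 WT and all 34 KKO time calls held. In KKO, replicates 1 and 3 each differed between 24 h and 48 h in their kinds of sex-linked transcripts. The block thus paired unlike libraries there and cannot serve as a check of pairing in KKO. Replicates of a group differed by more than counting noise (chi-square over degrees of freedom at least 5.95). Alternatives were DESeq2 1.42.0, limma-voom (limma 3.58.1), scaling by RLE or the upper quartile, 2 other filters, a threshold of 0.01, only the 6 libraries compared, replicate blocks, male share as a covariate, and leaving out libraries.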

Additional observations from a re-analysis of the deposited data

Results flagged for a closer look

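Pfkm was the 1 gene of the 35 with a called interaction in the fit of all 12 libraries. Among all tested genes 1.46% were called higher and 2.72% lower. The difference of KKO from WT in Pfkm was 0.69 larger on the log2 scale at 48 h than at 24 h (adjusted p = 0.0207, edgeR's quasi-likelihood test). The call held in 14 of 22 other settings, and its adjusted p by edgeR was 0.132 without the 2 mixed libraries. All 3 KKO libraries exceeded all 3 WT libraries at 48 h and the groups overlapped at 24 h.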

How the results depend on the processing

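No called gene changed direction under any alternative, and time counts stayed within 1.5 times. At 24 h, DESeq2 called 1 gene higher (Hk2). For 48 h in KKO against WT (15 higher, 3 lower), an adjusted p under 0.01 left 6 and 1, the fit of only the 6 libraries compared left 1 lower, and the fit without the 2 mixed libraries left 6 and 0. For the interaction (1 higher), the counts were 2 with at least 1 CPM in 6 libraries, 0 at an adjusted p under 0.01, 3 with DESeq2 (Pfkm, Gbe1 and Gys1), 2 under the replicate block (Pfkm and Gbe1), 5 with male share as a covariate (Pfkm, Gbe1, Gys1, Pdk2 and Pgm2) and 0 without the 2 mixed libraries. The replicate block also ended the 48 h calls of Pgam1 and Tigar and no other call. Leaving out each library in turn gave 0 to 3 called higher at 24 h, 6 to 19 higher and 1 to 3 lower at 48 h, and 0 to 7 higher and 0 to 3 lower for the interaction, the highest without replicate 2 of KKO at 48 h. The shares of all tested genes called under these alternatives are not given here, so a change particular to the 35 genes cannot be read from their counts. Where a cause is not named, the cause was not tested. The 3 libraries per group limit all genotype comparisons, and depth limits Pygl, Aldoc and Eno2 at 24 h and Pdk2 throughout.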
